A study of Mus musculus with 18 samples.

Results

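The 9 genes described here, Foxa1, Foxa3, Hnf4a, Sox17, Gata4, Gata6, Ttr, Epcam and Cldn6, are markers of the gut endoderm and were chosen by name. Their rows were found through their Ensembl identifiers, and all 9 of 9 were present among 53465 gene identifiers. The study was designed to find target genes of the TALE homeobox factors Meis1 and Meis2 that act when vertebrae take on their identity along the axis. At embryonic day 9, with 20 to 24 somites, 5 control embryos and 4 double knockout (DKO) embryos were dissected into pieces and read as 18 RNA-seq libraries. The posterior piece held the axial bud with the 10 to 12 youngest somites, and the anterior piece held the older somites, without the somite-free head end. Each embryo gave both pieces, which makes 4 groups, with n = 5 for either piece of the controls and n = 4 for either piece of the DKO.

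In the DKO embryos Meis1 and Meis2 had been removed conditionally by a Cre recombinase driven from Delta1 (Dll1), a Notch ligand gene transcribed in presomitic mesoderm and in the neural tube. The labels give neither the floxed alleles, nor the Cre status of the controls, nor a strain, and they do not say in which cells of these pieces the Cre had acted. Whole pieces were extracted, so each value is a mean over somites, neural tube, gut, vessels and skin. In the DKO libraries Meis1 and Meis2 RNA was still present. Anterior Meis2 was at 177 to 203 CPM (counts per megacount, scaled between libraries) in the controls and at 130 to 157 CPM in the DKO, and posterior Meis2 was at 117 to 162 CPM and 91.2 to 116 CPM. Meis1 was at 113 to 135 and 89.8 to 111 CPM in the anterior pieces and at 59.6 to 99.9 and 46.7 to 72.0 CPM in the posterior pieces. The 4 log2 fold changes lay between −0.55 and −0.30, and none reached an adjusted p of 0.05 with edgeR (0.0522 to 0.336). DESeq2 put all 4 past it, with adjusted p-values of 0.00747 and 0.0468 for anterior and posterior Meis1 and of 1.31e-07 and 0.000469 for Meis2.

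Totals lay between 12.7 and 38.2 megacounts per library, so that 3 counts corresponded to 0.0786 to 0.237 CPM. The labelled tissue was present: 11 genes of somites and presomitic mesoderm summed to 355 to 412 CPM in anterior and 420 to 520 CPM in posterior controls. The DKO sums were lower without overlap, at 240 to 338 and 266 to 418 CPM, where edgeR called 0 of 8 and 0 of 11 of these genes, 7 and 4 had an unadjusted p under 0.05 and DESeq2 called 2 and 1. Msgn1, a gene of the presomitic mesoderm, had at most 3 counts in each anterior library. Control embryo 1 is labelled female, but 4 Y-linked genes summed to 151 and 162 CPM in its libraries, against at most 0.930 CPM in the other 8 libraries labelled female and 126 to 175 CPM in those labelled male. Its results are therefore also given with the embryo left out where that changes a call. The labels do not name litters. Each p-value weighs a difference against the spread between the libraries of a group. The main fits did not pair the pieces of an embryo.

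The definitive endoderm forms a sheet that closes into the gut tube, an epithelium from which the lung, liver, pancreas and intestine arise. Sox17 and the Foxa and Gata factors are transcription factors that establish endoderm and open its enhancers, Hnf4a is a nuclear receptor of gut and liver epithelium, Ttr codes for the thyroid hormone carrier transthyretin made by liver and visceral endoderm, and Epcam and Cldn6 are adhesion proteins of epithelial surfaces. Most of the 9 do not mark the gut alone, and for Foxa3 no other tissue is named here. Epcam and Cldn6 are also made by surface ectoderm, Foxa1 by floor plate and notochord, Sox17 by arterial endothelium, Gata4 and Gata6 by heart and splanchnic mesoderm, and Ttr and Hnf4a by the visceral endoderm of the yolk sac.

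All 9 genes are protein coding, and the places are given on GRCm38. Foxa1 (ENSMUSG00000035451) lies on chromosome 12 from 57540628 to 57546916 on the minus strand, Foxa3 (ENSMUSG00000040891) on chromosome 7 from 19013284 to 19023538 on the minus strand, and Hnf4a (ENSMUSG00000017950) on chromosome 2 from 163506808 to 163572910 on the plus strand. Sox17 (ENSMUSG00000025902) lies on chromosome 1 from 4490931 to 4497354 on the minus strand, Gata4 (ENSMUSG00000021944) on chromosome 14 from 63198922 to 63271692 on the minus strand, and Gata6 (ENSMUSG00000005836) on chromosome 18 from 11052064 to 11085635 on the plus strand. Ttr (ENSMUSG00000061808) lies on chromosome 18 from 20665280 to 20674321, Epcam (ENSMUSG00000045394) on chromosome 17 from 87635979 to 87651129, and Cldn6 (ENSMUSG00000023906) on chromosome 17 from 23679249 to 23682446, all 3 on the plus strand. Gata6 shares 504 bp with a transcript on the opposite strand, 1010001N08Rik, which had a mean of 7.44 counts per library. Whether the counting used the strand is not given in the sources used here, so reads of that stretch cannot be assigned with certainty. The opposite-strand partners of Hnf4a (Hnf4aos) and Sox17 (Gm37587) had means of 0 and 0.24 counts.

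Levels were compared between genes per kilobase of exon. In anterior controls Cldn6 led with 12.0 ± 3.35 CPM per kb (SD, n = 5), followed by Epcam with 6.04 ± 1.25. Sox17 (1.55), Foxa1 (1.11) and Gata6 (0.890) came next, then Ttr (0.356), Gata4 (0.317), Hnf4a (0.0586) and Foxa3 (0.0495). In posterior controls the order on the same scale was Cldn6 (29.6 ± 5.02), Epcam (17.1 ± 3.04), Foxa1 (2.42), Gata6 (1.95), Sox17 (1.49), Foxa3 (0.470), Ttr (0.298), Gata4 (0.172) and Hnf4a (0.0519). In each of the 4 groups the libraries' ranges of Cldn6, Epcam and the gene after them did not overlap. Further down, neighbours overlapped except between Sox17 and the next gene in the anterior DKO and the posterior controls, and between Foxa3 and Hnf4a in the posterior DKO. The adhesion genes of the epithelium thus led on this scale, while Hnf4a, Ttr, Gata4 and anterior Foxa3 rested on few counts.

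The first comparison asked how the 9 genes differ along the body axis. Both adhesion genes, both Foxa genes and Gata6 were higher in the posterior piece, in control and in DKO embryos alike, by a fitted 1.97-fold to 12.95-fold. The largest value, of Foxa3 in DKO, rests on 9 anterior counts in all. Sox17 was near the same level in both pieces, Gata4 varied more between embryos than between pieces, and Hnf4a and Ttr did not pass the filter on low counts in controls. With edgeR, 5 of the 7 members tested in controls were called higher in the posterior piece, where 12.1% of all 15294 genes tested were, and 4 of 7 had no overlap between the groups, against 9.44% of all genes. In DKO embryos 5 of 7 were called higher, against 8.76% of 15777 genes, and 4 of 7 did not overlap, against 10.9%. With 1 DKO embryo left out, 2 to 6 members were called. The members' median log2 fold change was 1.14 in controls and 1.37 in DKO, and the median over all genes was −0.01 and 0.01. Foxa3 passed the filter on low counts in these comparisons only through its posterior libraries, so it had to differ, and the counts are not a test of the set. Ttr passed in the DKO through posterior DKO 1, 2 and 3 and anterior DKO 4. In pieces of tissue, fewer endoderm cells and less RNA per endoderm cell cannot be told apart.

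**Figure D1:**
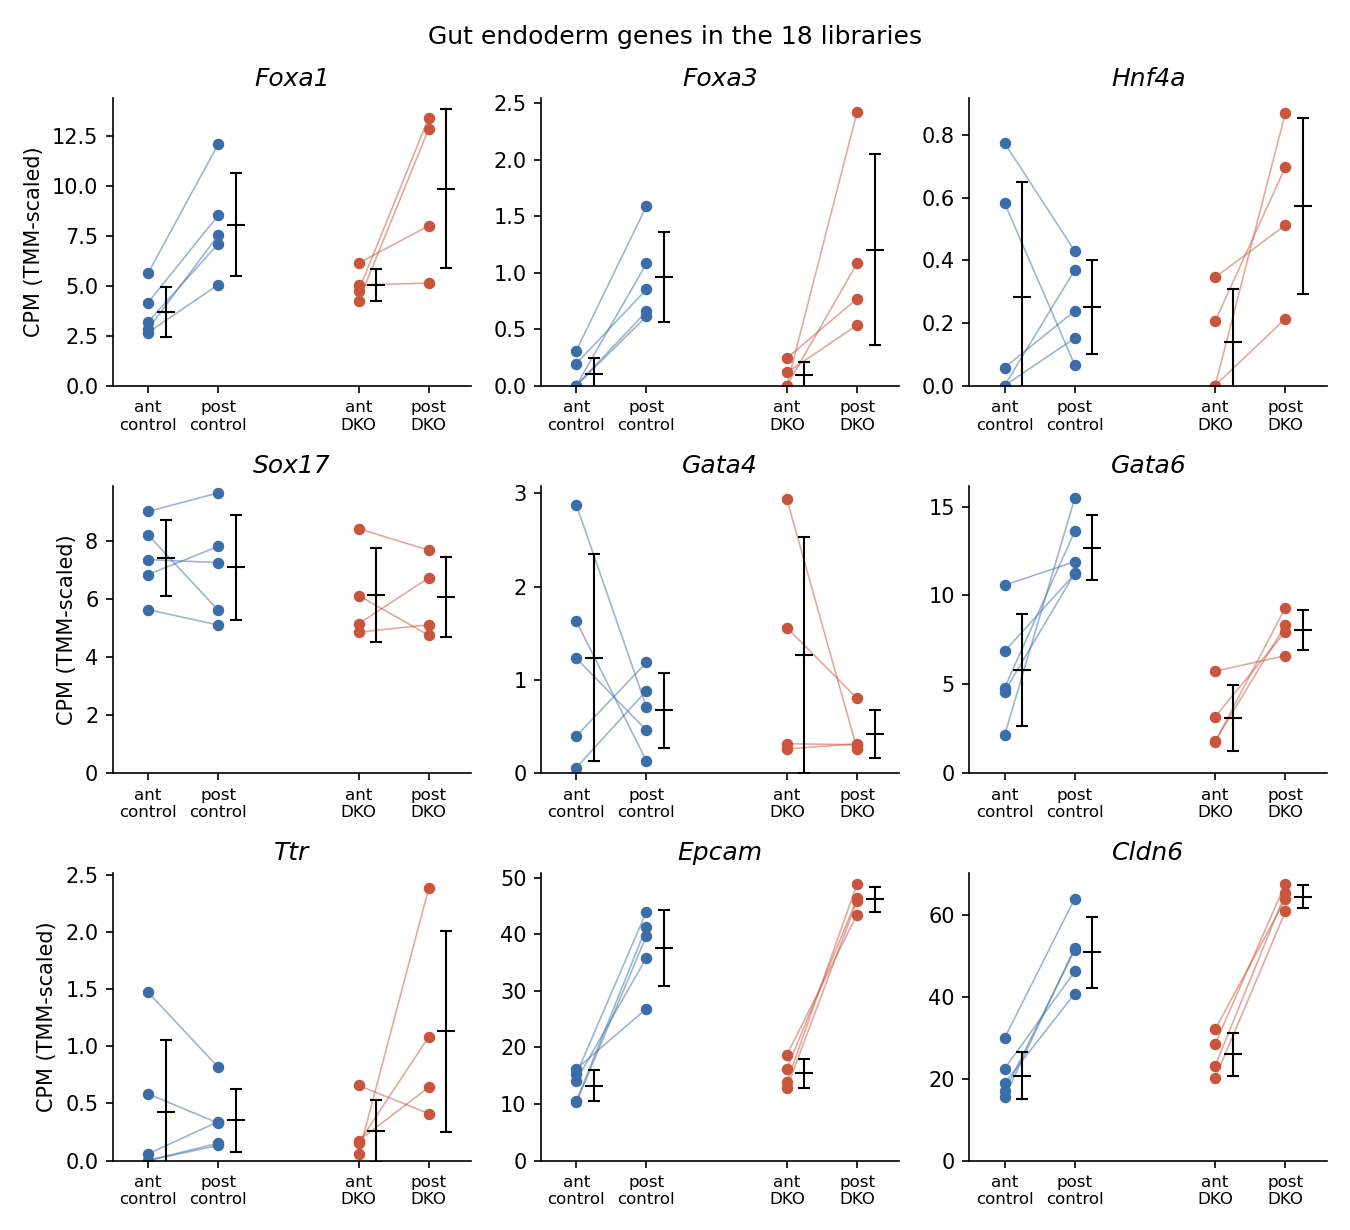
CPM of each gene (vertical axes, linear, from 0) in the anterior (ant) and posterior (post) libraries of control (blue, 5 embryos) and DKO (red, 4 embryos); lines join the pieces of an embryo, and black bars beside the points give the mean ± SD, cut at 0. For Foxa1, Foxa3, Gata6, Epcam and Cldn6 the line of every embryo goes up from anterior to posterior, while the lines of Sox17 and Gata4 go both ways.

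Epcam codes for a homophilic adhesion protein found on most embryonic epithelia. Epcam was at 10.3, 15.2, 16.2, 10.5 and 14.1 CPM in anterior controls 1 to 5 and at 39.7, 44.0, 26.8, 41.3 and 35.9 CPM in their posterior pieces. In DKO embryos 1 to 4 it was at 13.9, 12.9, 18.7 and 16.2 CPM in the anterior and at 48.9, 45.9, 43.5 and 46.3 CPM in the posterior pieces. Every posterior library lay above every anterior library, control 3 having the smallest step (1.66-fold) and control 4 the largest (3.95-fold). The log2 fold change was 1.51 in controls (SE 0.157, adjusted p = 1.65e-05) and 1.59 in DKO (SE 0.111, adjusted p = 9.78e-06).

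Cldn6 codes for claudin 6, a tight junction protein of embryonic epithelia. Cldn6 was at 16.9, 29.9, 18.9, 15.5 and 22.5 CPM in the anterior and at 51.5, 64.1, 40.8, 52.0 and 46.2 CPM in the posterior pieces of controls 1 to 5. In DKO embryos 1 to 4 it was at 23.2, 20.2, 32.0 and 28.5 CPM in the anterior and at 65.3, 60.9, 63.9 and 67.7 CPM in the posterior pieces. The groups again did not overlap, and the posterior to anterior ratio ran from 1.99 to 3.36 over the 9 embryos. On the log2 scale the difference was 1.29 in controls (SE 0.171, adjusted p = 0.000117) and 1.32 in DKO (SE 0.125, adjusted p = 6.16e-05).

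Foxa1 and Foxa3 are forkhead pioneer factors of the endoderm, Foxa3 being known for its high level in hindgut and liver. Foxa1 was at 3.17, 5.62, 2.64, 2.82 and 4.15 CPM in the anterior and at 7.09, 12.1, 5.04, 7.52 and 8.51 CPM in the posterior pieces of controls 1 to 5. In DKO embryos 1 to 4 it was at 4.75, 4.22, 5.02 and 6.12 CPM in the anterior and at 13.4, 12.8, 5.13 and 7.99 CPM in the posterior pieces. The groups overlapped, since posterior control 3 lay below anterior control 2 and posterior DKO 3 below anterior DKO 4, but within each of the 9 embryos the posterior piece was the higher, barely so in DKO 3 (1.02-fold). The log2 fold change of Foxa1 was 1.11 in controls (SE 0.254, adjusted p = 0.00617) and 0.98 in DKO (SE 0.278, adjusted p = 0.0339). The DKO call was lost without DKO embryo 1 (adjusted p = 0.210) or DKO embryo 2 (0.179).

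Foxa3 was close to absent from the anterior pieces, with 0 to 8 counts per control library and 0 to 7 per DKO library (0 to 0.310 CPM and 0 to 0.242 CPM). In the posterior pieces Foxa3 was at 1.08, 1.59, 0.656, 0.612 and 0.851 CPM in controls 1 to 5 and at 2.42, 1.08, 0.534 and 0.768 CPM in DKO 1 to 4. No posterior library fell into the anterior range. The fitted log2 fold change was 2.97 in controls (SE 0.652, adjusted p = 0.00470) and 3.69 in DKO (SE 0.821, adjusted p = 0.0100), and its size rests on 11 and 9 anterior counts in all. Without control embryo 2 the control value was 3.93 (adjusted p = 0.00275). The DKO value was 2.57 without DKO embryo 1 (adjusted p = 0.0563) and 5.33 without DKO embryo 4 (adjusted p = 0.00954).

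Gata6 and Gata4 are zinc finger factors shared by endoderm, heart and the mesoderm around the gut. Gata6 was at 4.59, 6.86, 10.6, 2.13 and 4.79 CPM in the anterior and at 11.3, 11.2, 11.9, 15.5 and 13.6 CPM in the posterior pieces of controls 1 to 5. In DKO embryos 1 to 4 it was at 1.80, 1.75, 3.18 and 5.74 CPM in the anterior and at 8.33, 9.32, 7.96 and 6.61 CPM in the posterior pieces. Neither genotype's groups overlapped, but the step was uneven, from 1.13-fold in control 3 to 7.28-fold in control 4. For Gata6 the log2 fold change was 1.14 in controls (SE 0.301, adjusted p = 0.0139) and 1.37 in DKO (SE 0.344, adjusted p = 0.0191). This call depended on single embryos: the adjusted p was 0.0572 without control 1 and 0.0665 without control 5, and 0.107, 0.0916 and 0.0735 without DKO 1, 2 and 3.

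Gata4 did not share the pattern of Gata6. It was at 0.397, 1.63, 2.88, 0.0575 and 1.23 CPM in the anterior and at 1.19, 0.129, 0.706, 0.885 and 0.458 CPM in the posterior pieces of controls 1 to 5. In DKO 1 to 4 it was at 0.315, 0.257, 1.56 and 2.94 CPM in the anterior and at 0.303, 0.314, 0.801 and 0.256 CPM in the posterior pieces. Anterior control 3 and anterior DKO 4 were the high libraries, and the posterior piece was the higher in 3 of 9 embryos. The log2 fold change in controls was −0.79 (SE 0.681, adjusted p = 0.457), and Gata4 did not pass the filter in the DKO comparison. Without a filter edgeR gave −1.63 in DKO (SE 0.650, adjusted p = 0.164).

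Sox17 was the member with the most even level. It was at 8.21, 7.36, 6.84, 9.02 and 5.64 CPM in the anterior and at 5.62, 7.26, 7.82, 9.66 and 5.11 CPM in the posterior pieces of controls 1 to 5. In DKO 1 to 4 it was at 4.86, 5.15, 6.12 and 8.43 CPM in the anterior and at 5.11, 6.74, 4.75 and 7.68 CPM in the posterior pieces. The groups overlapped widely and the posterior piece was the higher in 4 of 9 embryos. Its log2 fold change was −0.06 in controls (SE 0.183, adjusted p = 0.859) and −0.02 in DKO (SE 0.216, adjusted p = 0.975). Beside Sox17, 9 endothelial genes summed to 275 to 318 CPM in the anterior and 179 to 306 CPM in the posterior controls, and to 229 to 305 and 169 to 256 CPM in the DKO. Of these, Kdr, the VEGF receptor, fell in both genotypes with edgeR (−0.75 and −0.94) and Emcn in controls (−0.53). DESeq2 also called Emcn lower in DKO (−0.49, adjusted p = 0.0254). The part of vessels in the Sox17 level was not tested.

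Hnf4a and Ttr were low, with 0 to 23 and 0 to 63 counts per library. In the anterior controls 3 of 5 libraries had 3 or fewer counts of either gene, while no posterior DKO library did. Hnf4a was at 0, 0.775, 0, 0.0575 and 0.583 CPM in the anterior and at 0.369, 0.430, 0.151, 0.238 and 0.0655 CPM in the posterior pieces of controls 1 to 5, and at 0, 0.206, 0 and 0.346 CPM and 0.871, 0.698, 0.214 and 0.512 CPM in DKO 1 to 4. It passed the filter in neither region comparison. Without a filter its log2 fold change was −0.19 in controls (adjusted p = 0.914) and 2.02 in DKO (0.145), and that of Ttr in controls was −0.38 (0.831). Ttr was at 0, 1.47, 0, 0.0575 and 0.583 CPM in the anterior and at 0.132, 0.816, 0.151, 0.340 and 0.327 CPM in the posterior controls. In DKO 1 to 4 it was at 0.0572, 0.154, 0.173 and 0.657 CPM in the anterior and at 2.38, 1.08, 0.641 and 0.410 CPM in the posterior pieces. The highest anterior control was embryo 2 for both genes, and the highest posterior DKO was embryo 1 for both. The posterior log2 fold change of Ttr in DKO was 2.09 (SE 0.721, adjusted p = 0.0750). DESeq2 put it past the threshold (adjusted p = 0.0317), which made 6 called members where 10.3% of all genes were called higher, and so did edgeR without a filter on low counts (2.09, adjusted p = 0.0498) and leaving out DKO embryo 4, with a log2 fold change of 3.52 (adjusted p = 0.00931). Without DKO embryo 1, whose posterior piece had the most Ttr, it was 1.03 (adjusted p = 0.405).

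**Figure D2:**
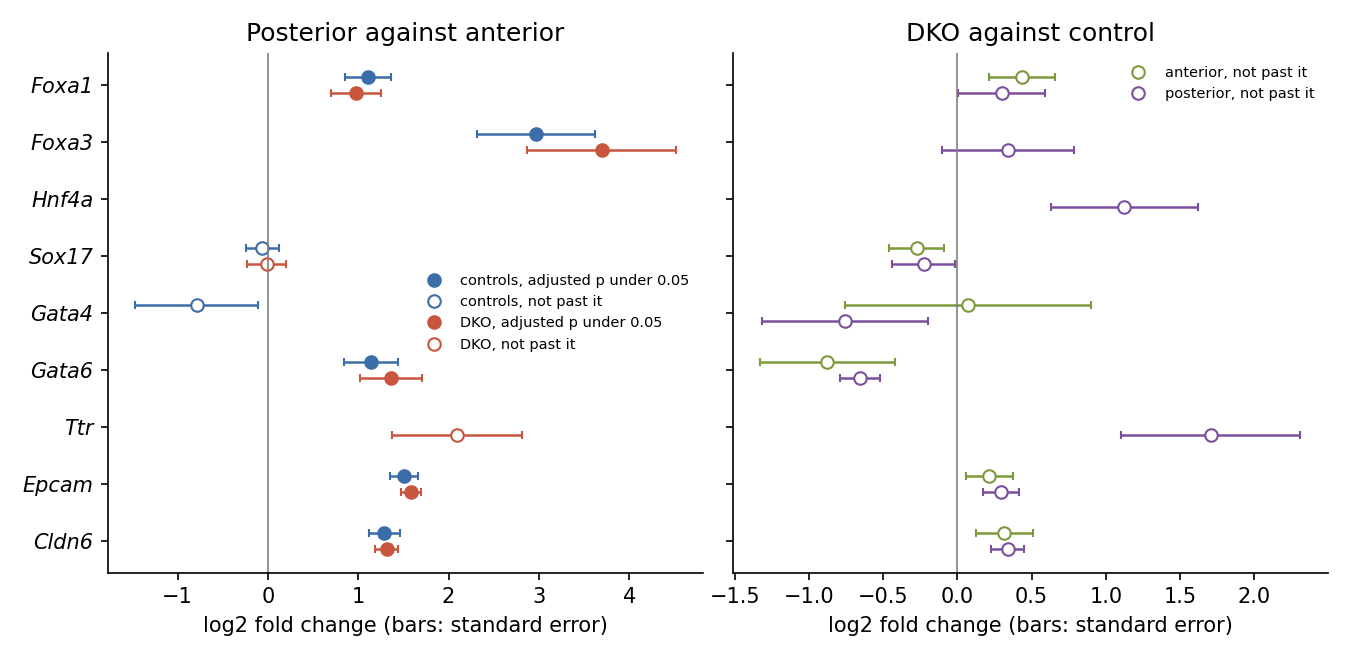
Fitted log2 fold change of each gene (horizontal axis) with its standard error as a bar, for posterior against anterior (left: blue controls, red DKO) and for DKO against control (right: green anterior, purple posterior). Filled points have an adjusted p under 0.05. In the left panel Foxa1, Foxa3, Gata6, Epcam and Cldn6 are filled in both genotypes, and in the right panel none is filled. Genes without a point did not pass the filter on low counts.

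The promoters of members that were higher in the posterior piece are shown because these genes differed together between the pieces and a promoter is where transcription of each starts. The RefSeq promoter table of GRCm38.p6 held entries for 5 of the 9 genes, of which Foxa1, Foxa3, Epcam and Cldn6 were called. Sox17, Gata4, Gata6 and Ttr had no match. Each run is the stretch of up to 250 bases just before the RefSeq start site, 5′ to 3′ on the gene's own strand, without bases that the annotation gives as exon (10 left out for Foxa1, 116 for Cldn6). Capitals mark matches, on either strand, to 6 motifs: a GATA motif (AGATAA or TGATAA), a FOXA motif (TGTTTAC or TGTTTGC), a MEIS motif (TGACAG), a GRHL motif (AACCGGTT), a TATA box (TATAAA) and a GC box (GGGCGG).
Foxa1, chr12:57546122-57546361, minus strand: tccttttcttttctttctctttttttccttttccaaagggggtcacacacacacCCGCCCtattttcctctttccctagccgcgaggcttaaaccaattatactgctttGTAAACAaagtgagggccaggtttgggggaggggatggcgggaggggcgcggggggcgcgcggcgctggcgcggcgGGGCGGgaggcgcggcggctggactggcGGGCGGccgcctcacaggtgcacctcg
Foxa3, chr7:19023540-19023789, minus strand: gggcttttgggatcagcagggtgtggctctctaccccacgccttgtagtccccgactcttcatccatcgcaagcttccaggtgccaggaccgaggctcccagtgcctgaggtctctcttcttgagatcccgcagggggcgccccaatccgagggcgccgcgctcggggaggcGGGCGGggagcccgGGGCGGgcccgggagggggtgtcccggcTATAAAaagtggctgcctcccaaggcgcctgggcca
Epcam, chr17:87635729-87635978, plus strand: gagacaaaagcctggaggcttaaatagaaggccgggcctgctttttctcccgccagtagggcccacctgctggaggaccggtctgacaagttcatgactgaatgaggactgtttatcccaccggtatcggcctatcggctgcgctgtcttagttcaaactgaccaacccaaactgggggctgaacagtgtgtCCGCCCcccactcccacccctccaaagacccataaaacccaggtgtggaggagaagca
Cldn6, chr17:23679115-23679248, plus strand: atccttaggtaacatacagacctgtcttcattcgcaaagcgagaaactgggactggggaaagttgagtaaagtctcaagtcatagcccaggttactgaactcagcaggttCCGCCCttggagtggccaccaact
Foxa1 had a FOXA motif from 141 to 135 bases before the start, on the other strand, and 3 GC boxes. Of the 4 shown, Foxa3 was the member with a TATA box, from 36 to 31 bases before the start, and it had 2 GC boxes. Epcam had 1 GC box, from 58 to 53 bases before the start, and Cldn6 had 2, of which that from 8 to 3 bases lies in the part not printed. In 32851 promoter windows of the same length, 32.7% held the GC box, 12.4% the TATA box and 7.29% the FOXA motif. The GATA motif (16.6% of windows), the MEIS motif (15.9%) and the GRHL motif (0.116%) were not among the letters of these 4 windows. A match is a description of the letters and not a binding site.

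A list of 20 further genes of gut endoderm and its epithelium was read beside the members. It was chosen with earlier results of these data known and is no independent support. Of the 15 that passed the filter, 11 were higher and 2 lower in the posterior piece in both genotypes, with a median log2 fold change of 1.25 in controls and 1.31 in DKO. Over all genes tested, 13.3% in controls and 9.7% in DKO were called lower. Cdx2, the caudal homeobox gene of hindgut and tail bud, was at 98.9 ± 32.1 CPM (SD, n = 5) in posterior and 0.417 ± 0.424 CPM in anterior controls, a log2 fold change of 7.75 in both genotypes. The epithelial splicing factor Esrp1 was at 19.5 ± 2.94 and 7.91 ± 1.99 CPM (1.31, and 1.50 in DKO), the tight junction gene Cldn4 at 20.8 ± 3.74 and 9.08 ± 1.75 CPM (1.19 in controls), and the keratin gene Krt19 at 36.3 ± 6.81 and 11.7 ± 1.48 CPM in DKO (1.64). The 2 that fell were Prox1 (−0.78 in controls, −0.91 in DKO) and Foxa2 (−0.34 and −0.42), the latter also a floor plate gene. In the same comparisons 8 of 8 neural tube genes were lower in the posterior piece in both genotypes. Nkx2-1, a gene of lung and thyroid buds, had at most 0.0575, 0.172, 0.0340 and 0.0379 CPM in the anterior control, anterior DKO, posterior control and posterior DKO libraries. Pdx1, a gene of the pancreas and duodenum, had at most 3 counts in every posterior library and reached 24 counts in the anterior controls and 23 in the anterior DKO (0.972 and 0.795 CPM).

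**Figure D3:**
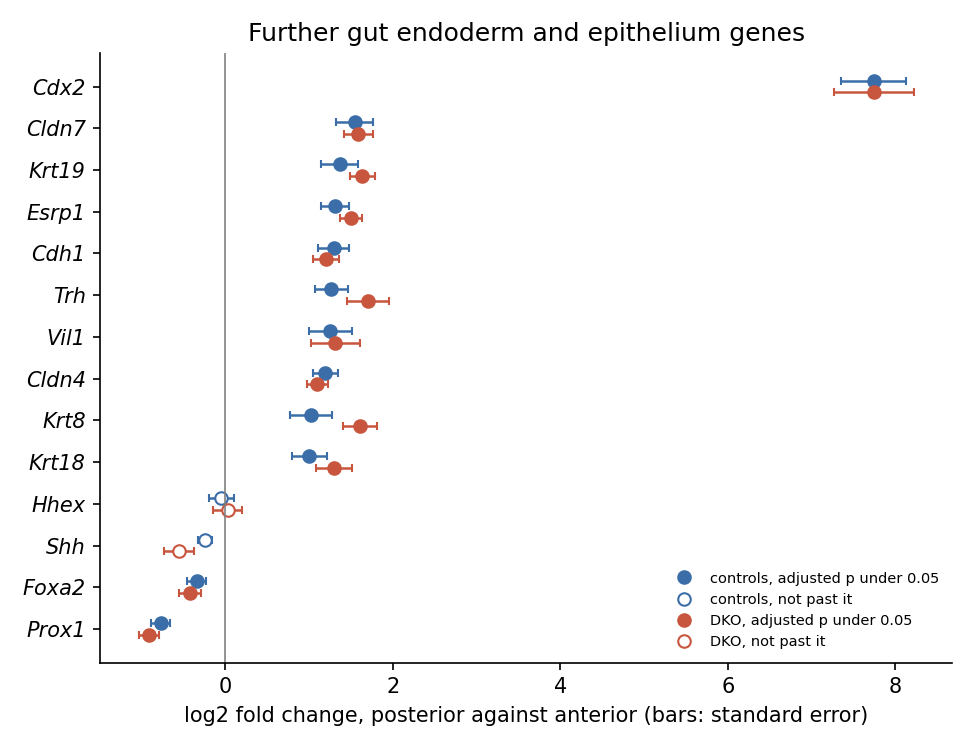
Log2 fold change, posterior against anterior (horizontal axis), of 14 of the 15 further gut endoderm and epithelium genes that passed the filter, in controls (blue) and DKO (red), with the standard error as a bar. Filled points have an adjusted p under 0.05. Cdx2 stands at 7.75, 9 more genes lie near or above 1 on the log2 scale, Foxa2, Prox1 and Shh lie below 0, of which Shh is not filled, and Hhex lies near 0 (−0.050 in controls, 0.028 in DKO).

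Genes of other cell types known to make some of the members also differed between the pieces. Of 9 surface ectoderm genes, 5 were called higher in the posterior piece in controls (Grhl3, Perp, Grhl2, Cldn3 and Krt5) and 4 in DKO (Grhl3, Perp, Trp63 and Grhl2), and none was called lower. All 9 genes were fitted higher in controls and 7 of 9 in DKO. Their summed level was 60.2 to 89.1 CPM in anterior and 93.2 to 110 CPM in posterior controls, and 76.2 to 97.6 and 98.2 to 123 CPM in DKO. The list's median log2 fold change was 0.62 in controls and 0.58 in DKO, where Epcam and Cldn6 had 1.29 to 1.59. The part of surface ectoderm in the Epcam and Cldn6 difference was not tested. Of 8 floor plate and notochord genes, T and Noto were higher and Ferd3l and Foxa2 lower in the posterior piece in both genotypes. The list's sums were higher in the posterior piece without overlap, at 314 to 368 against 234 to 272 CPM in controls and 299 to 339 against 235 to 265 CPM in DKO. These sums include T, at 95.5 ± 22.6 against 4.15 ± 0.669 CPM in controls and 105 ± 21.0 against 4.68 ± 0.850 CPM in DKO. In each genotype 4 of 8 genes of the list were fitted higher, with medians of 0.02 in controls and −0.04 in DKO. The part of notochord and floor plate in the Foxa1 level was not tested.

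Beside Gata6, 8 genes of splanchnic and coelomic mesoderm summed to 30.0 to 49.6 CPM in anterior and 80.8 to 95.6 CPM in posterior controls, and to 18.5 to 37.6 and 52.1 to 78.1 CPM in DKO. In controls Wt1, Isl1, Nkx2-3, Foxf1 and Foxf2 were higher in the posterior piece and Barx1 lower, and in DKO Nkx2-3, Hand1 and Foxf1 were higher. Of the heart muscle list, Hand2 was higher and 5 sarcomere or cardiac factor genes (Myh7, Tnnt2, Myl4, Tbx5 and Actn2) were lower in the posterior piece in both genotypes. The part of splanchnic mesoderm and of heart in the Gata6 level was not tested.

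Beside Ttr and Hnf4a, 12 genes of visceral endoderm and yolk sac summed to 15.5 to 38.7 CPM in anterior controls, 21.9 to 29.7 in anterior DKO, 20.1 to 26.2 in posterior controls and 22.5 to 54.7 in posterior DKO. With edgeR the list's call was Afp, which codes for alpha-fetoprotein: it was higher in the posterior DKO than in the anterior DKO pieces (9.29 ± 7.78 against 0.445 ± 0.485 CPM, log2 fold change 4.45, adjusted p = 0.00971). DESeq2 called Afp and also Rbp4, the retinol carrier gene, in that comparison (Rbp4: 1.56, adjusted p = 0.0137). Afp was at 18.9, 12.0, 1.28 and 5.02 CPM in posterior DKO 1 to 4 and at 0.757 to 5.41 CPM in the posterior controls. Among anterior controls, embryo 2 had 8.21 CPM of Afp and the other embryos 0 to 1.43 CPM. The libraries with high Afp, posterior DKO 1 and 2 and anterior control 2, were also those with the most Ttr in their groups, and the part of yolk sac tissue in the Ttr level was not tested. Alb, the albumin gene of the liver, had at most 3 counts in every library, while of the liver bud list Tbx3 was higher and Onecut1 and Prox1 lower in the posterior piece in both genotypes.

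The second comparison asked whether the 9 genes differ between DKO and control embryos. None passed the threshold with edgeR in either piece, and the fitted values lay between −0.88 and 0.43 in the anterior piece and between −0.76 and 1.71 in the posterior piece. In the anterior piece edgeR called 0 of the 6 members tested, against 0.0394% of 15238 genes, 0 of 6 had an unadjusted p under 0.05, against 13%, and 0 of 6 had groups that did not overlap, against 5.07%. DESeq2 also called 0 of 6, against 1.94% of all genes. In the posterior piece edgeR called 0 of 9, against 0.0126% of 15936 genes, but 5 of 9 had an unadjusted p under 0.05 (Hnf4a, Gata6, Ttr, Epcam and Cldn6, of which Hnf4a and Ttr only just passed the filter), against 11%, and the groups of 1 of 9 did not overlap, against 4.29%. DESeq2 called 1 of 9, Gata6, against 1.01% of all genes. In 1 edgeR fit over all 18 libraries, Hnf4a, Gata6, Ttr, Epcam and Cldn6 had unadjusted p-values of 0.0525 to 0.188. There 2651 of 16428 genes were under 0.05. Without DKO embryo 1, Gata6 and Cldn6 stayed under 0.05 with edgeR, against 1480 of 16014 genes. Epcam was then at 0.0846 and Ttr at 0.107, and Hnf4a did not pass the filter. The members' median log2 fold change was 0.14 in the anterior and 0.30 in the posterior piece, with 4 of 6 and 6 of 9 fitted higher, and the median over all genes was 0.00 and 0.01.

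Gata6 was the member whose posterior groups did not overlap between the genotypes. All 4 posterior DKO libraries (6.61 to 9.32 CPM) lay below all 5 posterior controls (11.2 to 15.5 CPM), with means of 8.05 ± 1.12 and 12.7 ± 1.84 CPM. The log2 fold change was −0.65 (SE 0.135, unadjusted p = 0.000471, adjusted p = 0.196 with edgeR), and with DESeq2 the adjusted p was 0.00347. Over all alternatives the adjusted p ran from 0.00347 to 0.534, and leaving out single embryos gave values of −0.73 to −0.58. In the anterior piece the log2 fold change was −0.88 (SE 0.455, adjusted p = 0.450), with overlapping groups of 2.13 to 10.6 CPM in controls and 1.75 to 5.74 CPM in DKO. The splanchnic list's sums were also lower in DKO without overlap in the posterior piece (52.1 to 78.1 against 80.8 to 95.6 CPM), where the list's median log2 fold change was −0.20, 2 of 8 genes were fitted higher, edgeR called 0, 2 had an unadjusted p under 0.05 and DESeq2 called 0. These sums include Wt1, at 0.854 to 10.2 CPM in the posterior DKO and 11.8 to 19.5 CPM in the posterior controls. In the anterior piece the list's median was −1.11, with 2 of 8 genes fitted higher, 0 called by edgeR, 3 with an unadjusted p under 0.05 and 1 called by DESeq2. Their part in the Gata6 value was not tested.

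The epithelial genes had higher means in the DKO pieces, short of the threshold. Posterior Cldn6 was at 64.5 ± 2.83 CPM in DKO and 50.9 ± 8.64 CPM in controls, with a log2 fold change of 0.34 (SE 0.109, unadjusted p = 0.00963, adjusted p = 0.389). Posterior Epcam stood at 46.1 ± 2.21 and 37.6 ± 6.68 CPM, which gave 0.29 (SE 0.122, unadjusted p = 0.0332, adjusted p = 0.449). For both genes posterior control 2 lay within the DKO range, and the other 4 controls lay below it. The anterior log2 fold changes were 0.32 for Cldn6 (SE 0.194, adjusted p = 0.528) and 0.22 for Epcam (SE 0.159, adjusted p = 0.611), with overlapping groups. Of the further gut and epithelium list, edgeR called 0 of 14 genes in the anterior and 0 of 16 in the posterior piece, 2 and 4 had an unadjusted p under 0.05, and DESeq2 called 1 in each. The medians of that list were 0.13 and 0.25, with 10 of 14 and 14 of 16 genes fitted higher. The surface ectoderm list had medians of 0.24 and 0.26, with 0 of 9 genes called by edgeR in each piece, 3 and 2 with an unadjusted p under 0.05, and 2 and 0 called by DESeq2. Genes of other tissues were read in the same pieces. All 8 neural tube genes were fitted higher in DKO in both, with sums of 649 to 719 against 483 to 616 CPM in the anterior and 292 to 393 against 235 to 330 CPM in the posterior piece. Of them edgeR called Hes5, a Notch target gene, in the anterior piece (82.1 ± 12.0 against 51.8 ± 4.01 CPM, log2 fold change 0.66, adjusted p = 0.0455) and 0 in the posterior piece, 7 and 3 had an unadjusted p under 0.05, and DESeq2 called 5 and 2. The part of these tissue differences, and of the lower somite sums, in the members' values was not tested.

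Ttr and Hnf4a had the largest fitted values in the posterior piece. Ttr was at 1.13 ± 0.882 CPM in DKO and 0.353 ± 0.276 CPM in controls, with a log2 fold change of 1.71 (SE 0.603, unadjusted p = 0.0159, adjusted p = 0.415), and of 1.04 without DKO embryo 1 (adjusted p = 0.545). Hnf4a stood at 0.574 ± 0.281 and 0.251 ± 0.150 CPM, which gave 1.12 (SE 0.496, unadjusted p = 0.0439, adjusted p = 0.451). In both cases the groups overlapped and DKO embryos 1 and 2 were the high ones. Each passed the filter (0.432 CPM before scaling in 4 libraries) with 3 posterior DKO libraries and posterior control 2 and no library to spare, so a test was made partly because DKO was high. With 1 of the 9 embryos left out, Hnf4a passed it in 4 fits (0.95 to 1.38, adjusted p = 0.330 to 0.668) and Ttr in 8 (1.04 to 1.97, adjusted p = 0.322 to 0.620). Of the visceral endoderm and yolk sac list, 6 of 7 genes tested were fitted higher in the posterior DKO, with a median of 0.44. There edgeR called 0, 2 had an unadjusted p under 0.05, and DESeq2 called Rbp4 (1.40, adjusted p = 0.0386). The part of that tissue in the Ttr and Hnf4a values was not tested. The anterior libraries did not pass the filter for Ttr, Hnf4a or Foxa3.

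For the remaining members no difference between the genotypes was detected. Foxa1 had log2 fold changes of 0.43 in the anterior (SE 0.224, adjusted p = 0.448) and 0.30 in the posterior piece (SE 0.291, adjusted p = 0.681). Beside it, 6 of 7 floor plate and notochord genes were fitted higher in DKO in each piece, with medians of 0.34 and 0.18. For these edgeR called 0 in each piece, 5 and 1 had an unadjusted p under 0.05, and DESeq2 called 1 (Shh) and 0, while the anterior sums overlapped (235 to 265 CPM in DKO, 234 to 272 in controls). Foxa3 had 0.34 in the posterior piece (SE 0.444, adjusted p = 0.766), and without DKO embryo 1, which held 2.42 CPM, its sign turned (−0.26). Sox17 had −0.27 (SE 0.185, adjusted p = 0.577) and −0.23 (SE 0.210, adjusted p = 0.663). Beside it, 0 of 9 endothelial genes were fitted higher in DKO in either piece, with medians of −0.16 and −0.28. For these edgeR called 0 in each piece, 2 and 1 had an unadjusted p under 0.05, and DESeq2 called 0 and 1 (Sox7). The part of these tissues in the Foxa1 and Sox17 values was not tested. Gata4 had 0.07 (SE 0.829, adjusted p = 0.983) and −0.76 (SE 0.558, adjusted p = 0.582), with standard errors too large to show a change of that size.

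The third comparison asked whether the DKO effect differs between the pieces, in 1 fit over the 18 libraries. With edgeR 0 of 9 members were called, as was 0.0% of 16428 genes, 0 of 9 had an unadjusted p under 0.05, against 3.45%, and DESeq2 called 0 of 9, against 0.0609%. The largest values were those of Ttr (2.50, SE 1.30, adjusted p = 0.999) and Hnf4a (2.23, SE 1.28, adjusted p = 0.999). Where they passed the filter with 1 embryo left out, they were 1.45 to 3.91 and 1.47 to 3.45, each lowest without DKO 1 and highest without DKO 4. For Epcam and Cldn6 the difference was 0.08 (SE 0.212) and 0.02 (SE 0.237) on the log2 scale, and for Gata6 it was 0.22 (SE 0.492).

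Within a group the members did not all vary together, but single libraries stood high for several. Among the 9 anterior libraries, control 2 was among the 2 highest for 6 of 9 members (Foxa1, Foxa3, Hnf4a, Gata6, Ttr and Cldn6), and DKO 4 for 6 of 9 (Foxa1, Foxa3, Sox17, Gata4, Ttr and Epcam). Among the posterior libraries, DKO 1 was among the 2 highest for 6 of 9 and the highest for 5 (Foxa1, Foxa3, Hnf4a, Ttr and Epcam). Control 2 has the lowest somite number in the labels, 20, shared with DKO 3, whose anterior library was the highest for Epcam and Cldn6. The posterior library of DKO 3 was among the 2 highest for 0 of 9 members. DKO 4 is labelled with 23 somites and DKO 1 with 22.

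**Figure D4:**
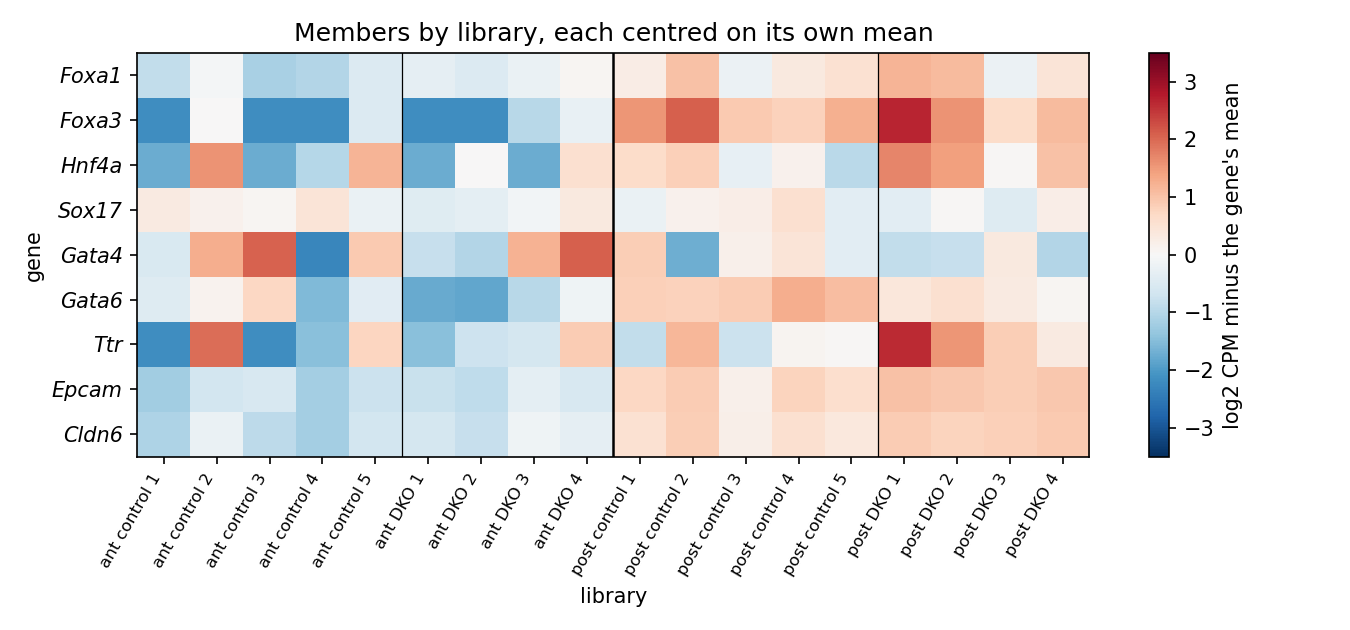
Log2 CPM of each gene (rows) in the 18 libraries (columns), minus the gene's own mean over the libraries; red is above the mean and blue below it, thin lines part the genotypes and the thick line parts anterior from posterior. Foxa1, Foxa3, Gata6, Epcam and Cldn6 go from mostly blue to mostly red at the thick line, Sox17 stays pale, and Ttr and Hnf4a are reddest in anterior control 2 and in posterior DKO 1 and 2, with paler red for 1 or both in other libraries of all 4 groups.

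The genes with the most similar pattern over the 18 libraries were found as the smallest mean absolute difference in centred log2 CPM among 16428 genes, as a description. Epcam and Cldn6 had the same nearest genes: Spint2, which codes for a protease inhibitor of epithelia, differed by 0.14 from Epcam and 0.11 from Cldn6, and Ociad2 by 0.15 and 0.12. The members' own mean deviation was 0.77 and 0.66. Foxa1 was nearest to the membrane protease gene Prss8 (0.25) and to Bmp2 (0.26), and Foxa3 to Kif12 (0.41) and Rgn (0.42). Gata6 was nearest to Prdm6 (0.28) and Smoc2 (0.31). Hnf4a was nearest to Ttr (0.59) and Ang (0.59), and Ttr to Spink1 (0.52) and to Rbp4 (0.52), which codes for the retinol carrier that binds transthyretin in blood. Gata4 had no close partner (Cfap44 at 0.73 and 5430431A17Rik at 0.75, against its own deviation of 1.05), and for Sox17 (Tmem131 and Hsph1, both 0.17 to 0.18) the own deviation was 0.28.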

How the data were processed

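Poly(A) RNA of 18 pieces from 9 embryos was read from 1 end at 61 bp on an Illumina HiSeq, per the labels' protocols. The deposited table holds expected counts per Ensembl gene, which the authors made with CASAVA, cutadapt and RSEM on GRCm38, per the submitters' processing notes; the aligner, versions and use of strand are not given in the sources used here. Of 53465 identifiers, 53360 were matched to GENCODE M21.

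Expected counts were rounded, filtered (filterByExpr, minimum count 10, minimum total 15) and scaled by TMM. Genes were tested with edgeR 4.0.16 (quasi-likelihood, R 4.3.3), with p-values adjusted by Benjamini-Hochberg over all genes tested and a threshold of 0.05. The standard error is the log2 fold change divided by the square root of F. Log2 CPM used a prior count of 2. DESeq2 1.42.0, RLE size factors, no filter, covariates, 1 fit over all libraries and leaving out each embryo were alternatives. The code was tested on simulated data.

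Embryos were matched across pieces on genotype, sex label and somite number. Deviations from group means correlated at 0.256 to 0.57 within the 9 pairs and at −0.283 to 0.0916 between other embryos of a genotype, so the embryo was a block in an alternative.

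The members and all gene lists were chosen with earlier results of these data known. All members were named, and of each list the rule named at most the 4 genes of smallest adjusted p per comparison. Further list genes given by name or value, in the text or a plot, were added after their values were seen. The counts, sums and medians of the further gut list include 1 gene that is not reported here. Floors of 3 counts cover counting error only.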

Additional observations from a re-analysis of the deposited data

Results flagged for a closer look

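Of 36 groups of libraries (9 genes in 4 groups), 1 held a library far from the others: Gata4 in posterior DKO 3, at 0.801 CPM, with the other posterior DKO libraries at 0.303, 0.314 and 0.256 CPM. Chance sets apart about 1 in 20 such groups.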

How the results depend on the processing

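Of 453 values recomputed under an alternative, 416 kept their direction and their side of the threshold. The number of members called stayed at 0 in the anterior DKO comparison and in the difference between pieces under every alternative run. In the posterior DKO comparison DESeq2 called 1 member (Gata6) and edgeR 0 under every other alternative. Leaving out 1 embryo gave 4 to 5 called members for posterior against anterior in controls and 2 to 6 in DKO, the lowest without DKO embryo 1 and the highest without DKO embryo 4, by way of Ttr. With the embryo as a replicate block the region comparisons called 5 and 5 members, as without it, and the difference between pieces 0. Over all genes the block called 5136 in controls and 3004 in DKO, against 3884 and 2913 without it. DKO and control embryos could not be paired.

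Directions turned for values near 0 or with few counts. Anterior Gata4 in DKO was −0.30 with sex label and somite number in the fit, and −0.85 to 0.57 without single embryos. The sex label was used as given, also for control embryo 1, labelled female but with Y-linked RNA. Posterior Foxa3 was −0.26 to 0.59 when an embryo was left out. The difference of the DKO effects ran, without single embryos, from −0.36 to 0.064 for Foxa1, −0.41 to 2.32 for Foxa3, −0.081 to 0.14 for Sox17, −1.34 to 0.24 for Gata4, −0.12 to 0.81 for Gata6, −0.10 to 0.20 for Epcam and −0.065 to 0.13 for Cldn6. Sox17, posterior against anterior, ran from −0.12 to 0.057 in controls and −0.14 to 0.081 in DKO. The cause was not tested. Over all genes the count of calls differed by more than 1.5 times between edgeR and DESeq2 in the anterior DKO comparison (6 and 296), in the posterior DKO comparison (2 and 161) and in the difference (0 and 10). Without a filter edgeR called 83 and 14 genes in the DKO comparisons, with sex label and somite number 88 and 3, and with all 18 libraries in 1 fit 19 and 51. Leaving out 1 embryo moved these counts to 1 to 57 in the anterior and 2 to 24 in the posterior DKO comparison, both highest without DKO embryo 2, and posterior against anterior in DKO from 2913 to 1728 without DKO embryo 1. Hnf4a, Ttr, Gata4 and anterior Foxa3 had few counts per library and also varied widely between embryos.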
